A study of Mus musculus with 6 samples.

Results

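The genes described here are the replication-dependent histone genes, which encode the linker histone H1 and the core histones H2A, H2B, H3 and H4. A probe set was taken where every symbol of its annotation began with H1f, H2ac, H2bc, H3c or H4c (or, in older naming, Hist1h to Hist4h), which gave 47 of the 28853 probe sets on the array. They comprised 8 probe sets for H1, 4 for H2A, 9 for H2B, 13 for H3, 12 for H4 and 1 shared by the H2B gene H2bc6 and the H1 gene H1f4. Of the 47, 30 named 1 gene and 17 named several, and together they named 47 of the 70 genes with such symbols in the gene table. The letters H1f also took in 3 linker histones that are not replication-dependent, H1f7, H1f8 and H1f10, and the main counts are also given without them.

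RNA came from fetal livers of C57BL/6J mouse embryos at E14.5, 3 of genotype Tmod3-/- (knockout, KO) and 3 of genotype Tmod3+/+ (wild type, WT). Each liver came from a separate embryo and was measured on 1 Affymetrix MoGene 1.0 ST array. The submitters described the knockout livers as small and the embryos as anemic, and the wild type phenotype as normal. Tmod3 encodes tropomodulin 3, a protein that binds and caps actin filaments at their pointed ends. The labels do not say how the allele was made. On the deposited log2 scale Tmod3 read 1.32, 2.36 and 1.30 in the knockout and 4.49, 4.78 and 4.90 in the wild type arrays, a difference of -3.06 (limma adjusted p = 0.0399), so each array matched its label. Knockout replicates 1 and 3 lay below their array medians of 1.43, so the size of this difference is a lower bound. Markers of both main cell compartments of fetal liver were present, since none of the 16 measured erythroid and none of the 17 measured hepatoblast and hepatocyte markers had a mean level under 1.5, near the array medians of 1.36 to 1.43. Knockout replicate 3 stood apart from the other 5 arrays in the histone genes, and results that rest on it are given with and without it.

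Replication-dependent histone genes lie in clusters, the largest of them on mouse chromosome 13, and are transcribed mainly in S phase, when new DNA has to be packed into nucleosomes. Their transcripts end in a conserved stem-loop in place of a poly(A) tail, and the stem-loop binding protein SLBP controls their processing, translation and decay. Fetal liver at this age is rich in dividing erythroblasts. The labelling protocol of the labels describes biotinylated cRNA, and the primer that started the cDNA, on which the yield from transcripts without poly(A) depends, is not stated in the labels. In RNA of a whole liver, fewer cells of a type and less RNA per cell cannot be told apart.

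No histone probe set passed the threshold. With limma, 0 of 47 members had an adjusted p under 0.05, where 3 of all 28853 probe sets (0.0104%) passed, all of them lower in knockout liver. At an unadjusted p under 0.05, 4 members were lower in knockout liver (H1f1, H1f5, H2ac4 and H2bc14) and 0 were higher. None of the 4 is among those 3 linker histones. That is 8.51% of the members lower, against 5.55% of all probe sets, and 0 higher, against 3.17% of all probe sets. In either direction it was 4 of 47, against 8.72% of all probe sets. Bright probe sets were lower more often in these data: among those with a mean level of at least 2, 12.1% of the 33 members and 18.7% of all 6742 probe sets were lower at that p. The members' share was thus a little above that of the array over all levels and under it among bright probe sets. The count of 4 was 14 without knockout replicate 2 and 1 after renewed quantile normalization.

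The direction was more uniform than the tests. The knockout minus wild type difference in log2 value, called log2 fold change from here on, was below 0 for 41 of 47 members, or 41 of 44 without H1f7, H1f8 and H1f10, and for 45.2% of all probe sets. The median over the members was -0.29, or -0.31 without those 3, against 0.02 over all probe sets and -0.15 over all probe sets with a mean of at least 2. The members' median level was 4.27. Over all probe sets with means from 4 to 5 the median log2 fold change was -0.25, and 79.0% lay below 0. The members' median was -0.17 over the 30 that name 1 gene. With the shared H3 and the shared H4 probe sets each averaged to 1 value, which was chosen after the values were seen, it was -0.18 and 28 of 34 values lay below 0. Without knockout replicate 3 the median was -0.0011, and 24 of 47 members lay below 0. Among bright members, 31 of 33 lay below 0 with all arrays, as did 4706 of all 6742 bright probe sets (69.8%). Without that array it was 17 of 33 members and 4582 of the 6742. In 2 members, H1f1 and H1f5, the 3 knockout arrays lay below the 3 wild type arrays (4.26% of the members, against 6.34% of all probe sets). Both have means from 4 to 5, where this held for 22.8% of all probe sets. Among bright probe sets it held for 6.06% of the members and 16.2% of all. In H1f8 and H1f10 the 3 knockout arrays lay above (2 of 47, against 6.79% of all probe sets).

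**Figure D1:**
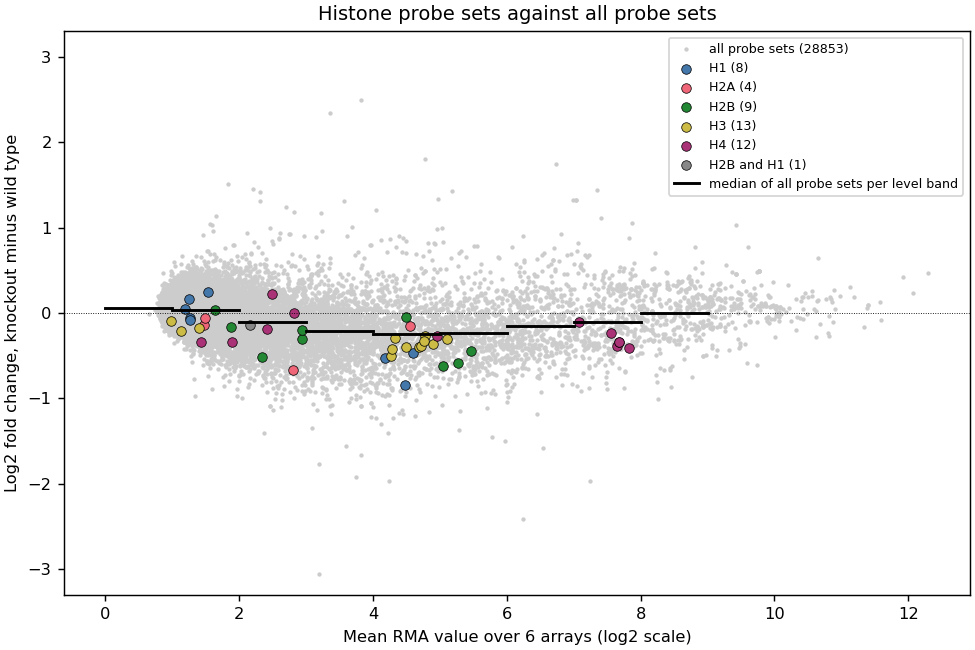
Log2 fold change between knockout and wild type (vertical axis) against the mean RMA value over the 6 arrays (horizontal axis, log2 scale), with all 28853 probe sets in grey, the 47 histone probe sets coloured by family, and black bars for the median of all probe sets in each level band. Most histone probe sets lie below 0, H1f1 lies lowest at -0.85, and the band medians for means from 3 to 6 are themselves between -0.22 and -0.25.

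Promoters are shown for H1f1 and H1f5, whose groups did not overlap, and for H2ac4 and H2bc14, the other members with an unadjusted p under 0.05. The promoter of H4c4, the brightest probe set that names a single gene, is also shown. RefSeq promoter windows on GRCm38.p6 were found for 42 of the 47 member genes, and each sequence below is the 150 bases before the annotated start, written 5′ to 3′ on the strand of the gene. Capitals mark 4 motifs on either strand. The TATA box was searched as TATAAA, and the CCAAT box by the letters of its name. The octamer known from H2B promoters was searched as ATTTGCAT, and the box known from H1 promoters as AAACACA. The windows are chr13:23763518-23763667 on the plus strand for H1f1, chr13:21780626-21780775 on the minus strand for H1f5, chr13:23750938-23751087 on the plus strand for H2ac4, chr13:21721894-21722043 on the plus strand for H2bc14 and chr13:23581418-23581567 on the plus strand for H4c4.
H1f1: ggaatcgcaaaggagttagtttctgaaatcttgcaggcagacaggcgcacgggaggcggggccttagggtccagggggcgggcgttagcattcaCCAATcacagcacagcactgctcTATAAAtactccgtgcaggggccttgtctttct
H1f5: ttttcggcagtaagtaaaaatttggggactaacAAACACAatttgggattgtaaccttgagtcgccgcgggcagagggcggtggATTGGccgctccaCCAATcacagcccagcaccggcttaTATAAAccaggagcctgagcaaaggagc
H2ac4: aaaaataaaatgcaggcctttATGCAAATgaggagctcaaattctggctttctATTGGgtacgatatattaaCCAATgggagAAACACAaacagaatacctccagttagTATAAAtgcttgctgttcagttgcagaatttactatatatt
H2bc14: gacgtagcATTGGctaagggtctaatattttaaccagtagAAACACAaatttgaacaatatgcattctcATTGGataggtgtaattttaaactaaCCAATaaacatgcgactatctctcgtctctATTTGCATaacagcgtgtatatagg
H4c4: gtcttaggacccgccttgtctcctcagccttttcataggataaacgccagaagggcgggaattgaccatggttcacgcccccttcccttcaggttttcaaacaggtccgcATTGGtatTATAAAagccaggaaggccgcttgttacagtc
In H1f1 a TATAAA begins 33 bases before the start and a CCAAT lies farther upstream, while AAACACA is not in the 250 bases before the start. Of the 6 replication-dependent H1 promoters found, the testis gene H1f6 included, the other 5 hold AAACACA there, as do 6.25% of all 32851 promoter windows. The octamer is in 6 of 9 H2B and 3 of 4 H2A promoters, in 0 of 10 H3 and 0 of 11 H4 promoters, and in 1.6% of all promoters. CCAAT is in 30 of 40 promoters of the replication-dependent members and in 33.8% of all, and TATAAA is in 21 of 40 and in 12.4% of all. These matches describe letters in a window, and their relation to the expression values was not tested.

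Linker histone H1 binds the DNA between nucleosomes. H1f1 (older name Hist1h1a, chromosome 13) read 4.26, 4.10 and 3.79 in the knockout and 4.92, 4.97 and 4.81 in the wild type arrays. Every knockout array lay below every wild type array, by a margin larger than the spread within either group. The means were 4.05 ± 0.24 and 4.90 ± 0.08 (SD, n = 3 each), 1.80-fold lower in knockout liver. The log2 fold change was -0.85 ± 0.14 (SE) (limma, unadjusted p = 0.000271, adjusted p = 0.184). H1f1 ranked 42 of all 28853 probe sets by p. Without knockout replicate 3 its log2 fold change was -0.72, and the adjusted p lay between 0.0888 and 0.790 over the alternatives, so the difference did not pass under any of them.

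H1f5 (Hist1h1b) read 4.58, 4.46 and 4.06 in the knockout and 4.99, 4.72 and 4.80 in the wild type arrays. The groups again did not overlap, although knockout replicate 1 and wild type replicate 2 were close. The log2 fold change was -0.47 ± 0.15 (SE) (limma adjusted p = 0.437), and -0.32 without knockout replicate 3. H1f2 (Hist1h1c), for which polyadenylated forms are known in differentiated cells, read 4.14, 4.19 and 3.41 against 3.92, 4.81 and 4.59. Its groups overlapped, as wild type replicate 1 lay below 2 knockout arrays, and its log2 fold change was -0.52 (limma adjusted p = 0.668). H1f3 (Hist1h1d) and the testis gene H1f6 (Hist1h1t) had means of 1.27 each, below the array medians.

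The 3 replacement linker histones were dim. H1f10 read 1.72, 1.71 and 1.53 in the knockout and 1.26, 1.48 and 1.47 in the wild type arrays, a log2 fold change of 0.25 (limma adjusted p = 0.589). H1f8, the oocyte linker histone, had 0.17 (adjusted p = 0.730) and H1f7, a spermatid linker histone, 0.05 (adjusted p = 0.945). All 3 had mean levels of 1.18 to 1.53, so these values lie near the floor of the measurement. The median over the 5 other H1 probe sets was -0.47, and over all 8 it was -0.07.

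H2A and H2B form the dimers on the outside of the nucleosome core. H2ac4 (Hist1h2ab) read 2.72, 2.76 and 1.93 in the knockout and 3.63, 2.75 and 3.02 in the wild type arrays. Knockout replicate 3 was the lowest and wild type replicate 1 the highest, and knockout replicate 2 lay level with wild type replicate 2. The log2 fold change was -0.67 ± 0.28 (SE) (limma adjusted p = 0.562), and -0.40 without knockout replicate 3. H2ac15 (Hist1h2ak), the brightest H2A member, read 4.40, 4.81 and 4.20 against 5.07, 4.53 and 4.28, a log2 fold change of -0.16 whose sign turned (0.09) after renewed quantile normalization. H2ac8 (Hist1h2ae) had -0.14 and the testis gene H2ac1 (Hist1h2aa) -0.06, both near the array medians in level. A further 2 probe sets named H2A genes together with H2ax and other symbols outside the rule and were not members. Their log2 fold changes were both -0.40, and their median without knockout replicate 3 was -0.17.

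Among the H2B probe sets, H2bc14 (Hist1h2bm) read 5.10, 4.69 and 4.40 in the knockout and 5.68, 5.54 and 4.84 in the wild type arrays. Wild type replicate 3 lay below knockout replicate 1, so the groups overlapped. The log2 fold change was -0.62 ± 0.25 (SE) (limma adjusted p = 0.543). H2bc9 (Hist1h2bh) read 5.21, 5.36 and 4.39 against 5.49, 5.30 and 5.92, a log2 fold change of -0.59 (limma adjusted p = 0.595) that was -0.29 without knockout replicate 3.

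H2bc4 (Hist1h2bc), the brightest H2B member and another gene with known polyadenylated forms, read 5.19, 4.98 and 5.54 in the knockout and 6.14, 5.67 and 5.26 in the wild type arrays. Knockout replicate 3 was here the highest knockout array, as in the dimmer H2bc22, and the log2 fold change was -0.45 with all arrays (limma adjusted p = 0.659) and -0.60 without that array. H2bc21 (Hist2h2be, chromosome 3), the other such H2B gene, read 4.34, 4.73 and 4.34 against 3.87, 4.84 and 4.84, a log2 fold change of -0.05 (adjusted p = 0.975). Wild type replicate 1 was the lowest array for that gene and the highest for H2bc4.

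H2bc8 (Hist1h2bg) had a log2 fold change of -0.31 (limma adjusted p = 0.700). The testis gene H2bc1 (Hist1h2ba) read between 1.54 and 1.78 in all 6 arrays, with 0.04. H2bc3 (Hist1h2bb) had a log2 fold change of -0.52 (limma adjusted p = 0.742), within the SD of 0.54 in the knockout and 0.59 in the wild type arrays. H2bc18 (Hist2h2bb, chromosome 3) had -0.20 and H2bc22 (Hist1h2bp) -0.16, both with overlapping groups. The probe set of H2bc6 and H1f4 together read 2.16, 2.03 and 2.09 against 2.30, 2.24 and 2.16, a log2 fold change of -0.14 that did not move without knockout replicate 3. The median over the 9 H2B probe sets was -0.31 with all arrays and -0.26 without knockout replicate 3. A further 7 probe sets named 14 or 15 genes, all of them H2B except for the symbol H4bc24 (older name Hist1h2br), whose letters are outside the rule, and they were not counted as members. Their log2 fold changes ran from -0.58 to -0.20 with a median of -0.53, or -0.25 without knockout replicate 3. For 3 of these 7 the knockout arrays lay below all wild type arrays, as for 6.34% of all probe sets and 20.1% of those with means from 5 to 6. All 7 share targets. The lowest limma adjusted p was 0.431. The lowest array in all 7 was knockout replicate 3, and 2 of them (10403959 and 10408087) held the same values.

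The H3 and H4 probe sets that name many genes showed a pattern carried by knockout replicate 3. That array was the lowest in 0 of 3 H3 and 3 of 6 H4 probe sets of a single gene. It was also the lowest in 4 of the 5 H1 probe sets other than the replacement linker histones, H1f1 and H1f5 among them. The same held for 3 of 4 H2A and 5 of 9 H2B probe sets, though not for H2bc4 or H2bc21. H3 and H4 form the tetramer at the centre of the nucleosome, and their genes are so alike that 10 of 13 H3 probe sets named the same 12 genes and 5 of 12 H4 probe sets the same 11 genes. The H3 genes were H3c1, H3c2, H3c3, H3c4, H3c6, H3c7, H3c8, H3c10, H3c11, H3c13, H3c14 and H3c15, and the H4 genes H4c1, H4c2, H4c3, H4c4, H4c6, H4c8, H4c9, H4c11, H4c12, H4c17 and H4c18. These probe sets share targets and are not independent of each other, and the 2 H4 probe sets 10403957 and 10408092 held the same values in every array. The 10 shared H3 probe sets read 4.23 to 5.16 in knockout replicate 1, 4.47 to 5.78 in replicate 2 and 2.87 to 3.93 in replicate 3. They read 4.48 to 5.30, 4.31 to 5.20 and 4.44 to 5.28 in wild type replicates 1, 2 and 3. Knockout replicate 3 was the lowest array in all 10 and knockout replicate 2 the highest in 9, while the 3 wild type arrays lay close together.

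The brightest shared H3 probe set (10404049) read 5.16, 5.78 and 3.93 in the knockout and 5.30, 5.20 and 5.28 in the wild type arrays. The standard deviation was 0.94 in the knockout and 0.05 in the wild type group, and the log2 fold change was -0.30 ± 0.39 (SE) (limma adjusted p = 0.879). The shared H3 probe set with the smallest p (10494402) read 4.23, 4.47 and 3.37 against 4.48, 4.31 and 4.78, a log2 fold change of -0.50 (limma adjusted p = 0.684). The others named by rule were 10404065 with -0.36, 10408202 with -0.40 and 10404028 with -0.40. Over the 10, the median log2 fold change was -0.37 with all arrays and 0.11 without knockout replicate 3, when 2 of 10 lay below 0. The probe sets of H3c15, H3c4 and H3c7 alone had means under 1.5, near the array medians, and H3c15 (Hist2h3c2, chromosome 3) had a log2 fold change of -0.21.

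The 5 shared H4 probe sets were the brightest members, with means of 7.56 to 7.83. They read 7.56 to 7.76 in knockout replicate 1, 8.04 to 8.40 in replicate 2 and 6.51 to 6.74 in replicate 3. In wild type replicates 1, 2 and 3 they read 7.76 to 8.12, 7.55 to 7.94 and 7.73 to 8.03. In each of the 5, knockout replicate 3 was below and knockout replicate 2 above all wild type arrays. The brightest (10408074) read 7.76, 8.40 and 6.71 in the knockout and 8.12, 7.94 and 8.03 in the wild type arrays, a log2 fold change of -0.41 ± 0.36 (SE) (limma adjusted p = 0.809). Over the 5, the median was -0.34 with all arrays and 0.12 without knockout replicate 3. The probe set of H4c17 and H4c11 together read 1.01 to 1.75 over all arrays, with a log2 fold change of -0.34 (adjusted p = 0.626).

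H4 probe sets of a single gene were mostly dimmer. H4c3 (Hist1h4c) read 2.25, 2.32 and 2.41 against 2.27, 2.55 and 2.71, a log2 fold change of -0.18 (limma adjusted p = 0.763). The H4 genes that follow, and the dimmer H2B genes above, were picked with their values in view. H4c4 (Hist1h4d) read 7.53, 7.41 and 6.16 in the knockout and 7.19, 6.92 and 7.30 in the wild type arrays. Knockout replicates 1 and 2 lay above and replicate 3 below all wild type arrays, and the log2 fold change was -0.10 (limma adjusted p = 0.958), or 0.33 without replicate 3. H4c14 (Hist2h4, chromosome 3) read 4.71, 5.40 and 4.36 against 4.92, 5.25 and 5.12, with knockout replicate 3 the lowest. On the same chromosome that array was also the lowest for H2bc18, but not for H2bc21 or H3c15. H4c8 (Hist1h4h) had 0.22, the only H4 member above 0.1 (adjusted p = 0.893). H4c6 (Hist1h4f) read 1.65, 2.64 and 0.91 against 2.33, 1.96 and 1.90, the same order of knockout arrays as in the shared probe sets, at a low level. H4c9 (Hist1h4i) read 2.60, 3.09 and 2.75 against 2.94, 2.75 and 2.74, with means that did not differ at 2 decimals.

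**Figure D2:**
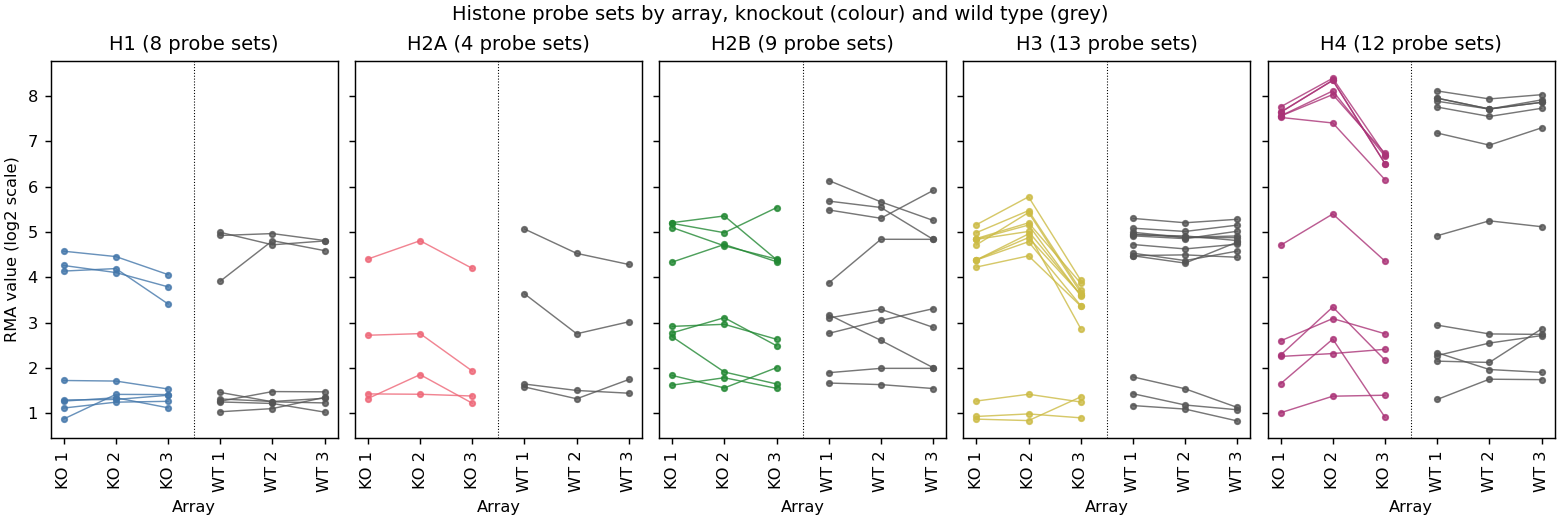
RMA values (vertical axis, log2 scale) of the histone probe sets of each family in each of the 6 arrays (horizontal axis), with knockout arrays in colour and wild type arrays in grey and lines that join values of the same probe set within a genotype. The bright H3 and H4 probe sets drop in knockout replicate 3, to 2.87 to 3.93 for the shared H3 probe sets and 6.51 to 6.74 for the shared H4 probe sets.

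Knockout replicate 3 was the lowest of the 6 arrays for 30 of 47 members and for 27 of 33 bright members. Among all 6742 bright probe sets it was the lowest for 26.0%. It lay at least 0.5 below the lowest of the other 5 arrays in 19 of the 33 bright members, against 2.95% of all bright probe sets and 5.23% of all probe sets with means from 4 to 8. The distance was chosen after the values were seen. All 10 shared H3 and all 5 shared H4 probe sets are among the 27 and among the 19. They share targets, so these are not counts of independent members. Relative to the wild type mean, knockout replicate 3 had a median of -1.27 over the shared H3 and -1.32 over the shared H4 probe sets. The same median was -0.30 over all probe sets with means from 4 to 5 and -0.08 over those from 7 to 8. Knockout replicate 2 was the highest array for 17 of the 33 bright members and for 14.9% of all bright probe sets. Among the 17 are 9 of the 10 shared H3 and all 5 shared H4 probe sets.

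**Figure D3:**
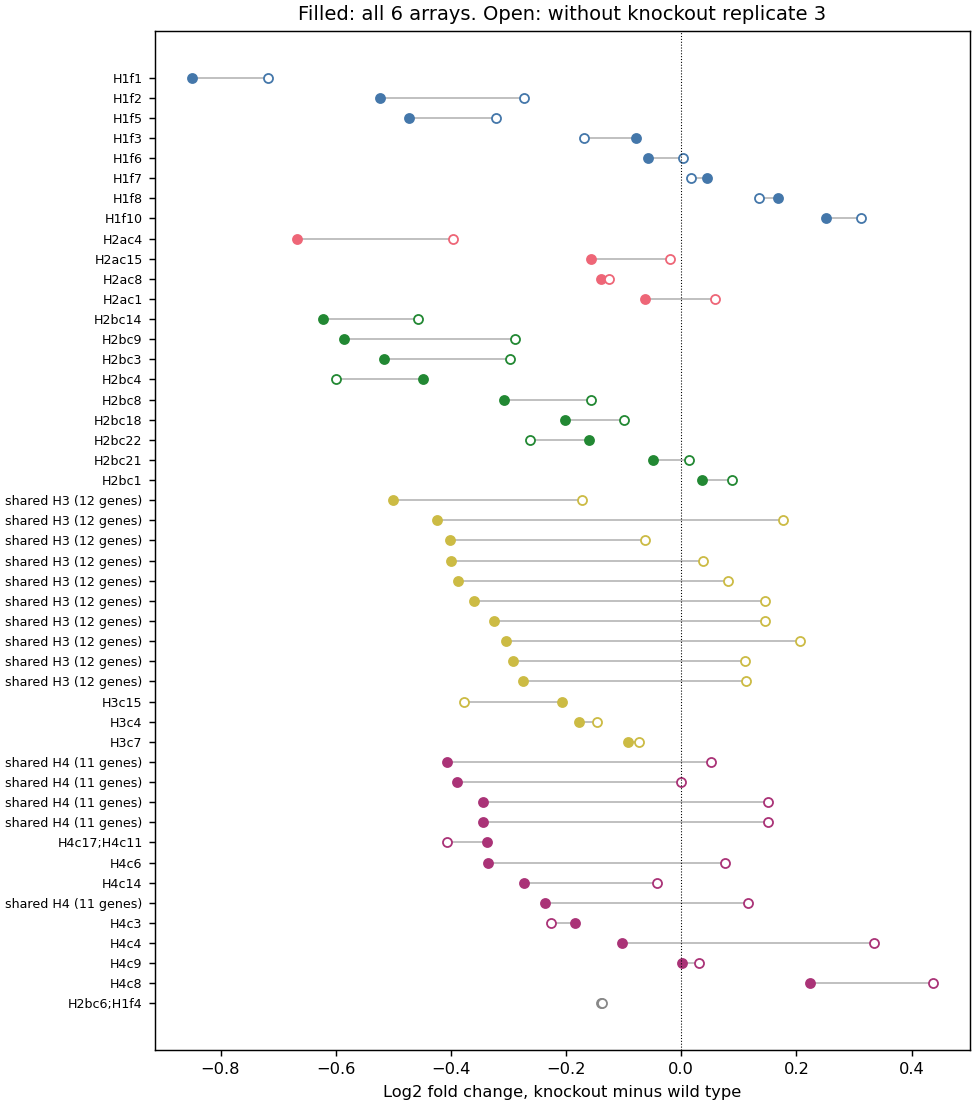
Log2 fold change between knockout and wild type (horizontal axis) for each of the 47 histone probe sets (vertical axis, coloured by family), with all 6 arrays as filled points and without knockout replicate 3 as open points. Most shared H3 and H4 probe sets move from below 0 to above 0, while H1f1 moves from -0.85 to -0.72.

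Other gene lists in the same array did not show a drop of that size, apart from liver cell markers. Averaged over their probe sets, knockout replicates 1, 2 and 3 differed from the wild type mean by -0.14, 0.30 and -1.26 for the shared H3 and by -0.21, 0.40 and -1.22 for the shared H4 probe sets. For the 32 measured genes of S phase and DNA replication the differences were -0.39, -0.33 and -0.50, and for the 19 of G2/M and mitosis -0.21, -0.26 and -0.49. For the 17 hepatoblast and hepatocyte markers they were -0.24, -0.15 and -1.11, with mean levels of 6.06, 6.15 and 5.19 in the knockout and 6.06 to 6.49 in the wild type arrays. In 14 of those 17 the lowest array was knockout replicate 3. For the 16 erythroid markers the mean levels were 4.76, 4.88 and 4.51 in the knockout and 4.67 to 5.32 in the wild type arrays. Of these 16, 0 passed (limma adjusted p) and 14 had a log2 fold change below 0, with a median over all 16 of -0.38. All probe sets with means from 4 to 5, the level of this list's median gene, had a median of -0.25. Hba-x (1.34) and Hbb-y (1.45) lay above 0 and are part of those mean levels. Knockout replicate 3 was the lowest array in 11 of the 16. For the 13 macrophage markers, 6 of them with a mean under 1.5, the mean levels were 2.02, 1.92 and 1.63 against 1.97 to 2.27. Knockout replicate 3 differed from the wild type mean by 0.15 for the 11 endothelial, -0.36 for the 5 megakaryocyte and -0.22 for the 9 neutrophil markers. The part of these cell types in the histone values was not tested.

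**Figure D4:**
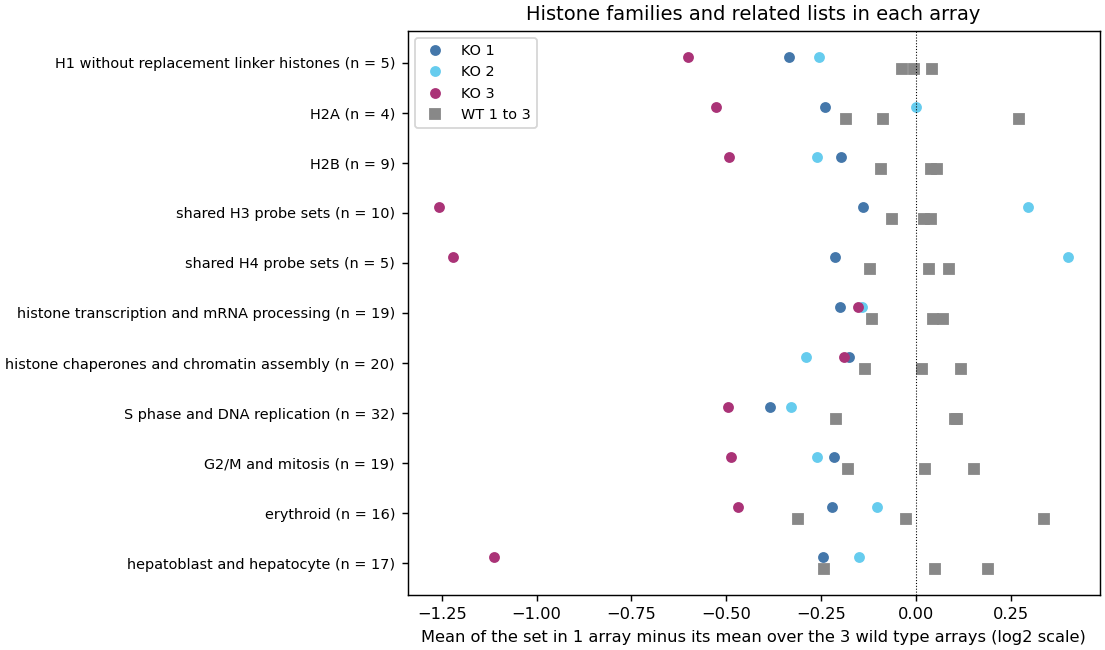
Mean of a gene set in 1 array minus its mean over the 3 wild type arrays (horizontal axis, log2 scale) for histone families and related lists (vertical axis), with a coloured point for each knockout array and grey squares for the wild type arrays. Knockout replicate 3 lies at -1.26 for the shared H3, -1.22 for the shared H4 probe sets and -1.11 for the hepatocyte markers, and between -0.15 and -0.60 for the other sets plotted.

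Genes that act on histone transcripts and proteins were described from lists, with 1 probe set per gene. Of 19 measured genes of histone transcription and mRNA processing, 0 passed (limma adjusted p), 2 were lower at an unadjusted p under 0.05 and 0 higher, and the median log2 fold change was -0.12. For this list and those that follow, 5.55% of all probe sets and 18.7% of those with a mean of at least 2 were lower at that p, and the median of the latter was -0.15. These lists also hold genes with means under 2, so they are not matched in level to bright probe sets. In this list 6 of the 19 genes had means of at most 1.5. Whether its count and median differ from those of probe sets of like level was not tested. Npat, the cyclin E-Cdk2 substrate that activates histone gene transcription, read 2.88, 3.08 and 3.33 in the knockout and 3.18, 3.76 and 3.67 in the wild type arrays, a log2 fold change of -0.44 (adjusted p = 0.556). Cpsf2, a subunit of the complex that cleaves histone pre-mRNA, had -0.62 (adjusted p = 0.546), Eri1, a nuclease that trims the histone 3′ end, -0.43 (adjusted p = 0.608) and Casp8ap2, which encodes the processing factor FLASH, -0.31 (adjusted p = 0.646). The stem-loop binding protein gene Slbp, which was chosen for naming for its role, read 5.87, 6.17 and 5.40 against 6.08, 6.35 and 6.14. For Slbp, too, the lowest array was knockout replicate 3, and the log2 fold change was -0.38 (adjusted p = 0.649).

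Of 20 measured histone chaperone and chromatin assembly genes, 0 passed (limma adjusted p), 6 were lower at an unadjusted p under 0.05 and 0 higher, with a median log2 fold change of -0.16, close to the -0.15 of all bright probe sets, of which 18.7% were lower at that p. Hat1, the acetyltransferase of newly made H4, read 6.40, 5.96 and 6.12 in the knockout and 6.54, 7.01 and 7.02 in the wild type arrays. The groups did not overlap, and the log2 fold change was -0.70 ± 0.17 (SE) (adjusted p = 0.325). Asf1a, a chaperone of H3-H4 dimers, had -0.56 (adjusted p = 0.433), Nasp, which keeps a pool of soluble H3 and H4, -0.48 (adjusted p = 0.450) and Mms22l, a replication fork factor, -0.47 (adjusted p = 0.431).

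Of 32 genes of S phase and DNA replication, 0 passed (limma adjusted p), 14 were lower at an unadjusted p under 0.05 and 0 higher, where 5.55% of all probe sets and 24.1% of those with means from 3 to 4, the level of this list's median gene, were lower. The median log2 fold change was -0.35, and -0.33 without knockout replicate 3. Rfc4 had -0.95, Rrm1 -0.75, Ccne2 -0.98 and Pcna -0.50, and in each the groups did not overlap. Side by side, the medians without knockout replicate 3 were -0.33 for this list, 0.11 for the shared H3 and 0.12 for the shared H4 probe sets; the difference between them was not tested. Of 19 genes of G2/M and mitosis, 6 were lower at an unadjusted p under 0.05, where 5.55% of all probe sets and 24.9% of those with means from 5 to 6 were lower. In this list 0 were higher and 0 past the threshold, with a median of -0.33 and with Anln (-0.50), Kif23 (-0.41), Aurka (-0.45) and Ccnb2 (-0.71) as the genes with the smallest p.

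Of the replacement and variant histones, 9 genes were measured, without the H1f members. Of these, 0 passed (limma adjusted p), 2 were lower at an unadjusted p under 0.05 and 0 higher, with a median log2 fold change of -0.18, where 5.55% of all probe sets and 18.7% of bright ones were lower at that p. H2az1, which encodes the variant H2A.Z, read 8.23, 8.06 and 8.01 in the knockout and 8.88, 8.96 and 8.46 in the wild type arrays. The groups did not overlap, and the log2 fold change was -0.66 ± 0.15 (SE) (adjusted p = 0.293). H2ax, the variant phosphorylated at DNA breaks, had -0.48 (adjusted p = 0.450), H3f3a -0.15 (adjusted p = 0.730) and Cenpa, the histone of centromeres, -0.19 (adjusted p = 0.766). The H3f3a probe set had a mean of 1.21, below the array medians, so its value lies near the floor of the measurement.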

How the data were processed

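RNA of 3 Tmod3-/- and 3 Tmod3+/+ fetal livers was measured on Affymetrix MoGene 1.0 ST arrays, 1 array per embryo. The authors made the deposited log2 values with RMA, a tool that the submitters' processing notes name without a version. They were taken as log2 from their range, as the log base is not stated. Arrays have no read depth, and their number limits the precision. Probe sets were named through the platform annotation of the array and a GRCm38.p6 gene table, in which all 47 member symbols were found.

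The genotypes were compared in R 4.3.3 with lmFit and eBayes of limma 3.58.1 (two-sided, without a trend) over all 28853 probe sets, with Benjamini-Hochberg adjustment and a threshold of 0.05. All probe sets were fitted because histone probe sets often name several genes. The fit was tested on simulated data. Gene lists used the brightest probe set with 1 symbol. Genes were named by rule: Tmod3, the 4 smallest p and 2 highest means per family, germ cell, polyadenylated and replacement members, and up to 4 genes per pathway list by p. The members and lists were chosen with earlier results of these data known. Alternatives were each array left out in turn, a block on the replicate number, quantile normalization applied again, median centring, a minimum mean of 2, robust fitting with a trend, weights per array and other choices of probe sets.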

Additional observations from a re-analysis of the deposited data

How the results depend on the processing

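Over all alternatives, 0 histone probe sets passed an adjusted p under 0.05 (limma). The count of members lower at an unadjusted p under 0.05 was 4, and it was 1 after renewed quantile normalization, 7 when 9 probe sets that pair histone symbols with another symbol were added (chosen after seeing the data), and 4 to 14 when 1 array was left out, the highest without knockout replicate 2. The count of members higher was 0, and 0 to 1 when 1 array was left out. With the replicate number as a block, 7 members were lower; numbers do not pair the samples by the labels, and the deviations of same-numbered arrays correlated at 0.14, 0.06 and -0.10, so not every pair was above 0.1. The median log2 fold change over the members ran from -0.47 to -0.0011 when 1 array was left out, the latter without knockout replicate 3, and from -0.34 to -0.15 under the other alternatives. Family medians turned sign without knockout replicate 3 for H3 (0.08) and H4 (0.06), and without knockout replicate 1 for H1 (0.01). Of 28 named probe sets, 0 passed under any alternative and 11 changed sign under at least 1, while H1f1 stayed between -0.95 and -0.63. Members below a mean of 2 gave no value under the dim filter. Causes were not tested.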
